A study of Sus scrofa with 48 samples.

Results

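The genes described here were 8 genes of cholesterol metabolism, HMGCS1, IDI1, FDPS, FDFT1, SQLE, DHCR7, SREBF2 and INSIG1, out of 10965 distinct gene symbols on a 60 K porcine microarray. They were found by their names in the array's annotation, which gave 18 of the 60305 distinct probes. A probe was kept when 12 or more of the 48 arrays flagged its signal as well above background, which left 14 probes of 6 genes, and no probe of HMGCS1 or DHCR7. The 8 genes hold synthesis enzymes and regulators of synthesis and uptake.

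Gene expression was measured in the longissimus muscle of 48 barrows of a French Large White population, from 2 lines bred in opposite directions for residual feed intake (RFI), the part of feed intake not explained by growth and maintenance. Pigs of the low RFI line (RFIneg) and of the high RFI line (RFIpl) were fed ad libitum an HF diet, rich in fat and in fiber, or an LF diet, low in both. There were 12 pigs in each of the 4 groups, each pig on its own one-colour array. Fat and fiber differed together between the diets, so that their effects cannot be told apart, and each direction of selection was represented by a single line. The ages of these pigs are not given in the labels.

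Cells make cholesterol from acetyl-CoA through a chain of enzymes, in which HMGCS1 acts early. IDI1, FDPS and FDFT1 build squalene from isoprene units, SQLE then adds oxygen to squalene, and DHCR7 closes the chain. The transcription factor SREBP-2, encoded by SREBF2, switches on these enzymes and cholesterol uptake when sterols are scarce, while INSIG1 holds SREBP-2 in the endoplasmic reticulum when sterols are plentiful. Skeletal muscle makes some of its own cholesterol and takes up part of it from lipoproteins.

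The probe sequences below show what was hybridised for 4 of the 6 measured genes, written as the array annotation lists them. They are the brightest probe of IDI1, FDPS and INSIG1 and, for FDFT1, the second probe, beside O10068 from which its values are mainly given. None is printed for SQLE or SREBF2. Those of HMGCS1 and DHCR7 are given because these probes gave too little signal. No genome was used here, and the probes were not compared with transcript or protein sequences. Which strand of the transcript a probe matches was therefore not determined. Whether strand bears on the low signal of the HMGCS1 and DHCR7 probes, or on the values of IDI1 O10086, was not tested.
IDI1 O10086: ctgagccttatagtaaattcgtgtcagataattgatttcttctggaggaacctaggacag
FDPS A_72_P212122: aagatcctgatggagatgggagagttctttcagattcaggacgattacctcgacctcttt
FDFT1 A_72_P098361: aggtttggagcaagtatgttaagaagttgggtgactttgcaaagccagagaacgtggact
INSIG1 A_72_P186291: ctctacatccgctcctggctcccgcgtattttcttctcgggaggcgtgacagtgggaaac
HMGCS1 O9276: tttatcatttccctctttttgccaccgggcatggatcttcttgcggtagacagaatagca
DHCR7 O7475: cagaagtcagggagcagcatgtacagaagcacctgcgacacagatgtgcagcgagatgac

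Of the probes that were not kept, HMGCS1 A_72_P278614 and DHCR7 O7475 were well above background on 0 of 48 arrays, HMGCS1 O9276 on 3 and FDPS O8700 on 7. HMGCS1 and DHCR7, named by this rule, were therefore not tested. Among the probes kept, those of IDI1, FDFT1, INSIG1 and SREBF2, 3 of FDPS and a pair of SQLE were well above background on all 48 arrays. The other SQLE probes were well above background on 14 (A_72_P705210) and 12 arrays (O12690). Their differences thus rest in part on signals near the background. For A_72_P705210 these were 1 and 6 arrays of HF-fed low and high RFI pigs, and 3 and 4 of LF-fed ones. Without the HF-fed high RFI pigs it would not have been kept. The SQLE pair, A_72_P444903 and A_72_P088686, shares a run of 57 bases out of 60, and these probes are not independent measurements.

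Array medians of the processed signal went from 52.8 to 107.9, from 59.2% to 74.2% of an array's spots stood well above background, and saturation was absent. Each of the 6 slides carried 8 arrays, 2 per group. All 74 probes of the 10 muscle fibre markers were well above background on the 48 arrays. Values are the log2 of the processed signal minus the array's mean over the 42125 probes tested, so that a difference of 1 is a doubling, and levels of different probes are not comparable. The measurement is on whole tissue, in which fewer cells of a type and less RNA per cell cannot be told apart. The number of arrays limits the precision.

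The first question was whether the diet changed the expression of these genes. In limma's moderated test with Benjamini-Hochberg adjustment over all probes, no member probe passed for the diet: 0 of 14 had an adjusted p under 0.05 and 2 of 14 an unadjusted p under 0.05, against 177 called probes (0.42%) and 5513 probes with an unadjusted p under 0.05 among the 42125 tested. Of the 177, 74 were higher and 103 lower on the HF diet, a split that went to 177 and 66 with 75th percentile scaling, 75 and 44 with quantile normalization and 114 and 51 in the deposited log2 table. The difference was below 0, meaning less signal on the HF diet, for 13 of the 14 probes, with a median of -0.10 against 0.00 (0.0019) for all tested probes. These 14 probes share genes, pigs and in part sequence, and were not 14 independent observations. The widest differences were those of the SQLE pair (-0.38 and -0.37), followed by INSIG1 A_72_P442208 (-0.27) and by IDI1 (0.25), the one probe above 0.

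IDI1, the isomerase that makes the activated isoprene unit, was represented by its single kept probe O10086, with values on the log2 scale. The strand this probe matches was not determined, so that its values may not be those of the IDI1 transcript. Under the HF diet, low RFI pigs lay between -3.31 and -1.15 (median -2.71) and high RFI pigs between -3.63 and -2.41 (median -2.97). Under the LF diet, low RFI pigs lay between -3.19 and -2.33 (median -2.76) and high RFI pigs between -4.12 and -2.40 (median -3.25). The 4 groups overlapped, with the lowest values in the high RFI line on the LF diet and a single low RFI pig on the HF diet standing well above the others. The HF minus LF difference in log2 signal was 0.25 (standard error 0.12, 95% interval 0.01 to 0.48, limma adjusted p = 0.349), and 17 of the 24 HF pigs were above the median of the LF pigs. The difference was above 0 on 5 of 6 slides.

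FDPS, which joins isoprene units into farnesyl diphosphate, had nearly the same signal in the 4 groups. With probe A_72_P212122 and the HF diet, low RFI pigs lay between 2.43 and 3.18 (median 2.79) and high RFI pigs between 2.35 and 3.02 (median 2.81). When fed the LF diet, low RFI pigs lay between 2.66 and 3.03 (median 2.82) and high RFI pigs between 2.52 and 3.22 (median 2.76). The 4 medians lay closer together than the pigs of any group did. The diet difference was -0.03 (95% interval -0.13 to 0.08, limma adjusted p = 0.892), and -0.01 and -0.04 with the other probes of the gene, A_72_P565924 and A_72_P661524. Deviations from the group means were alike in the 3 FDPS probes, with r between 0.79 and 0.95 over the 48 pigs.

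FDFT1, squalene synthase, is the enzyme that commits the pathway to sterols. For probe O10068 and the HF diet, low RFI pigs lay between 5.47 and 6.21 (median 5.78) and high RFI pigs between 5.54 and 6.50 (median 5.77). In the LF groups, low RFI pigs lay between 5.67 and 6.49 (median 5.99) and high RFI pigs between 5.47 and 6.28 (median 5.89). Both LF medians were above both HF medians, but the ranges overlapped for most of their width. The diet difference was -0.12 (standard error 0.07, 95% interval -0.27 to 0.03, limma adjusted p = 0.504), and -0.15 with probe A_72_P098361. Within the low RFI line, the difference with O10068 was -0.23 (unadjusted p = 0.0382 in limma across all probes, adjusted p = 0.392), against -0.02 within the high RFI line.

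SQLE, squalene epoxidase, which makes the first oxygenated step towards sterols, varied widely among pigs. With probe A_72_P444903, HF-fed low RFI pigs lay between -2.01 and -0.43 (median -1.501) and high RFI pigs between -2.12 and -0.13 (median -1.05). Among LF-fed pigs, low RFI pigs lay between -2.03 and 0.70 (median -0.96) and high RFI pigs between -1.94 and 0.51 (median -0.75). The lowest pigs were alike in all 4 groups, whereas the highest pigs were on the LF diet. The HF diet gave a difference of -0.37, or 0.776 times the LF signal (standard error 0.18, 95% interval -0.73 to 0.00 with an upper bound of 0.0007, limma adjusted p = 0.384), and 17 of the 24 HF pigs were below the median of the LF pigs. With A_72_P088686 the difference was -0.38 (limma adjusted p = 0.368), and it was below 0 on 3 of 6 slides with either probe. The dim probes A_72_P705210 and O12690 gave -0.09 and -0.21.

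SREBF2, the transcription factor of the pathway, differed little. The signal of A_72_P255532 was measured in all pigs, and HF-fed low RFI pigs lay between 4.06 and 4.50 (median 4.28) and high RFI pigs between 3.73 and 4.35 (median 4.16). The LF-fed low RFI pigs lay between 3.98 and 4.46 (median 4.21) and high RFI pigs between 3.92 and 4.52 (median 4.19). All 4 groups covered nearly the same range. The diet difference was -0.02 (95% interval -0.12 to 0.08, limma adjusted p = 0.928), and turned to 0.004 when arrays were scaled on their 75th percentile. The other probe, O8965, gave -0.11 (95% interval -0.29 to 0.08).

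INSIG1, the sterol-dependent brake on SREBP-2, is also a target of SREBP-2. With probe A_72_P186291, HF-fed low RFI pigs lay between 0.97 and 1.44 (median 1.23) and high RFI pigs between 0.85 and 1.24 (median 1.08). In LF-fed animals, low RFI pigs lay between 0.96 and 1.505 (median 1.21) and high RFI pigs between 1.02 and 1.40 (median 1.19). The high RFI pigs on the HF diet had the lowest median, within the range of the other groups. The diet difference was -0.07 (standard error 0.04, 95% interval -0.15 to 0.02, limma adjusted p = 0.537), and was below 0 on 6 of 6 slides, from -0.23 to 0.00 (-0.0002). The second probe, A_72_P442208, varied far more, from -2.67 to -1.88 (median -2.30) and from -2.70 to -0.18 (median -2.13) in HF-fed low and high RFI pigs, and from -2.86 to 0.02 (median -1.97) and from -2.76 to -0.26 (median -2.01) in LF-fed ones. The low RFI pigs on the HF diet lacked the high values seen in the other groups. The diet difference with this probe was -0.27 (95% interval -0.63 to 0.10, limma adjusted p = 0.58).

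**Figure D1:**
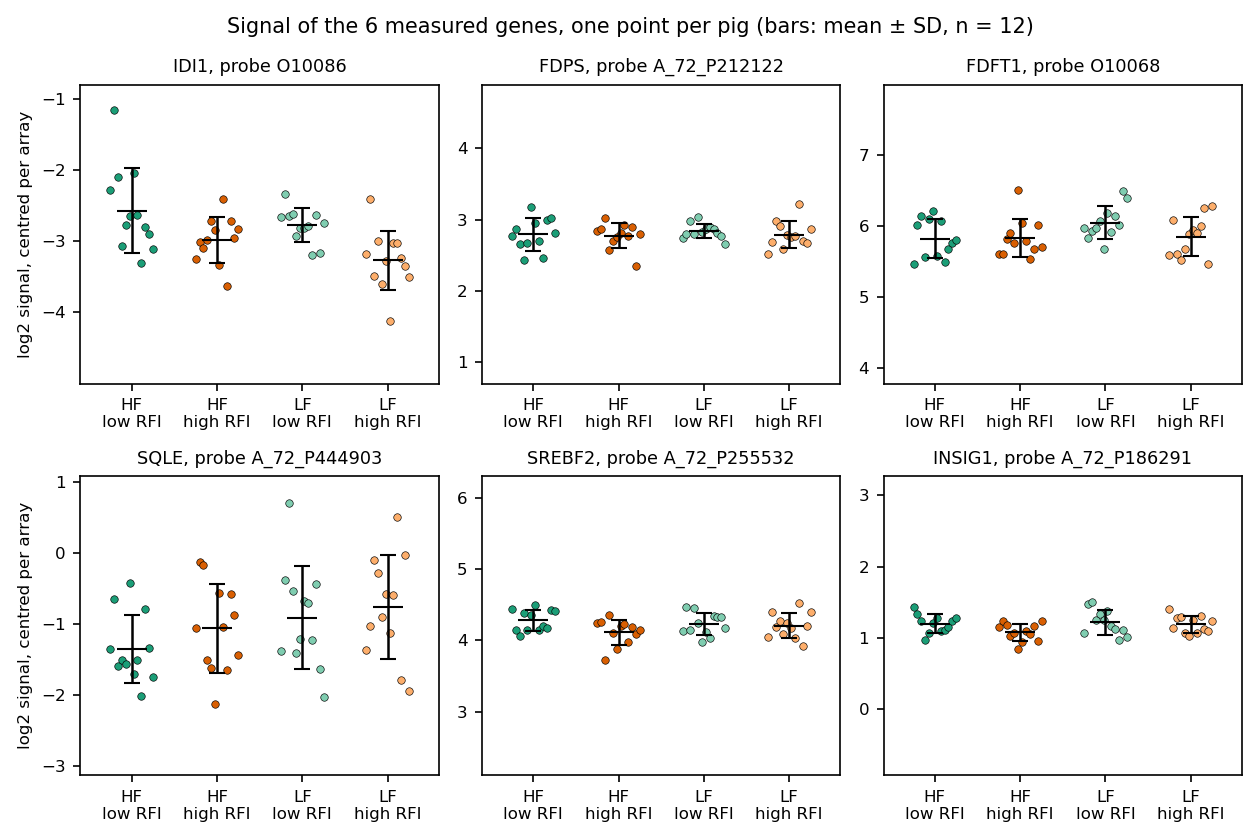
Log2 signal centred per array (vertical axis, same height of 4.2 log2 units in each panel) of the representative probe of each of the 6 measured genes, in the 4 line and diet groups; each point is a pig, bars are the mean ± SD with n = 12. SQLE and IDI1 spread over a wide range and FDPS, SREBF2 and INSIG1 over a narrow one, and the groups overlap in every panel.

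The response to diet was then taken within each line. In the low RFI line 84 probes (0.199%) were called, and 0 of them were member probes. In the high RFI line no probe was called (0% of 42125, with 2303 at an unadjusted p under 0.05), and the same held for the line by diet interaction (0%, with 1875 at an unadjusted p under 0.05). The widest member interaction was that of the dim SQLE probe A_72_P705210, which would not have been kept without the HF-fed high RFI pigs. Its diet difference was -0.61 in the low RFI line and 0.43 in the high RFI line (difference 1.04, standard error 0.56, unadjusted p = 0.0723 in limma across all probes). With the SQLE probe A_72_P444903, the diet difference was -0.44 in the low RFI line and -0.29 in the high RFI line. For this probe, the interaction was 0.14 (standard error 0.36).

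The lines differed much more than the diets over the whole array, with 6919 of 42125 probes (16.4%) called, of which 4151 (9.85%) had less signal in the high RFI line. Of the 14 member probes, 1 was called, that of IDI1, which is below the share over all probes. The signal of IDI1 O10086 was lower in the high RFI line, at a difference of -0.45, or 0.731 times that of the low RFI line (standard error 0.12, 95% interval -0.69 to -0.22, limma adjusted p = 0.00635). After normexp background correction the difference was -0.21 (limma adjusted p = 0.00615). The ranges of the lines overlapped, and 20 of the 24 high RFI pigs were below the median of the low RFI pigs. The difference was below 0 on 6 of 6 slides, from -0.72 to -0.19 (-0.1861), and stayed between -0.49 and -0.39 when any single pig was left out. With the HF diet it was -0.41 and with the LF diet -0.49, and it was not called on either diet alone.

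The direction of the IDI1 difference depended on the probe. Another probe, A_72_P095631, has no gene symbol on the array and is therefore outside the rule, but its description names a partial match to the IDI1 protein. This probe was picked out after its values were seen. Under the HF diet, its signal lay between -3.30 and -0.79 (median -2.01) in low RFI pigs and between -2.57 and -0.28 (median -1.15) in high RFI pigs. Under the LF diet, it lay between -2.96 and -0.07 (median -1.78) and between -3.25 and 1.29 (median -0.66). The 4 groups overlapped, the high RFI pigs having the higher medians. In contrast with O10086, high RFI pigs had more signal, by 0.78 (standard error 0.26, limma adjusted p = 0.0335, and 0.0654 without the filter on dim probes), and 19 of the 24 high RFI pigs were above the median of the low RFI pigs. Deviations from the group means with these probes showed little relation over the 48 pigs (r = -0.09). Which of them follows the IDI1 transcript was not settled here, so that a line difference can be stated for each probe but not for the gene.

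**Figure D2:**
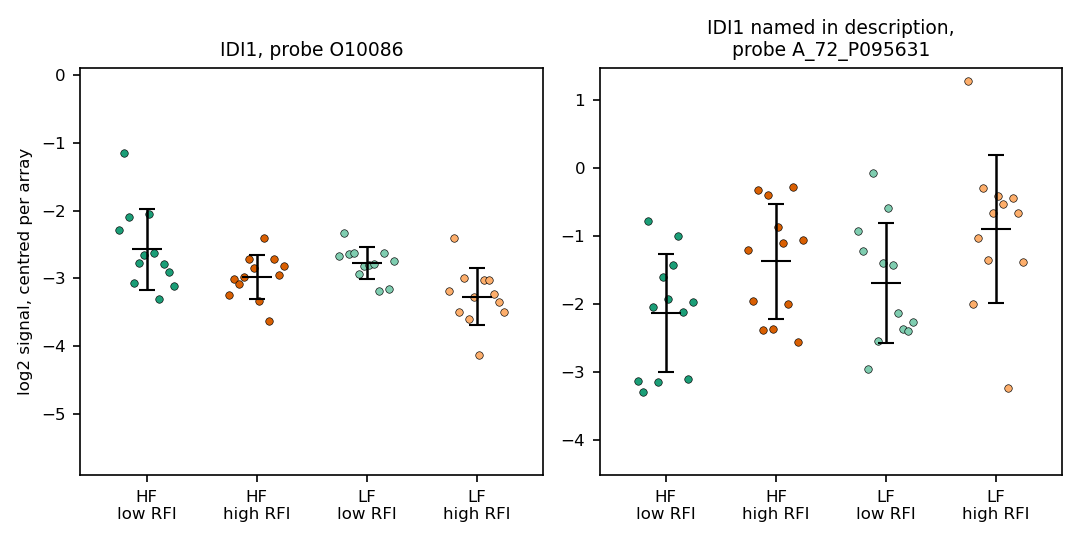
Log2 signal centred per array (vertical axes, each 6 log2 units high) of IDI1 probe O10086 and of the probe whose description names the IDI1 protein, by line and diet; each point is a pig, bars are the mean ± SD with n = 12. On either diet the mean of the high RFI line is below that of the low RFI line with O10086 and above it with A_72_P095631.

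For the other genes of the rule, line differences were not called. For FDPS they were between -0.04 and -0.01 with 3 probes, for FDFT1 -0.10 and -0.05, and for SREBF2 -0.09 and -0.02. For INSIG1 they were -0.07 with A_72_P186291 and 0.18 with A_72_P442208, so that the mean of its probes gave 0.05. The smallest adjusted p among these probes was 0.187, for SREBF2 A_72_P255532 (limma). For SQLE they were above 0 with all 4 probes, from 0.21 with A_72_P444903 (95% interval -0.15 to 0.58, limma adjusted p = 0.444) to 0.67 with the dim probe A_72_P705210 (limma adjusted p = 0.0962, and 0.0371 without pig 38, a low RFI pig of the LF diet). On the HF diet, 2692 probes (6.39%) were called. There A_72_P705210 had more signal in high RFI pigs, the difference being 1.18 (limma adjusted p = 0.0596, standard error 0.40). It was well above background in 6 of 12 high RFI and 1 of 12 low RFI pigs. Without these high RFI pigs the probe would not have been kept, so that its difference is no independent support for SQLE. Taking slide as a block brought its adjusted p to 0.0433, whereas the SQLE pair measured on all arrays gave 0.29 on this diet. On the LF diet, where 1040 probes (2.47%) were called, 0 of 14 member probes were called.

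DHCR7, the last enzyme of the pathway, had probes outside the rule as well, which again were chosen after their values were seen. With A_72_P144016, the diet difference was 0.03 (95% interval -0.06 to 0.13) and the line difference -0.07. The other probe, A_72_P224342, holds the base run AATAAA on its other strand, as do 4.32% of all probes. Which strand of the transcript it matches was not determined. With A_72_P224342, HF-fed pigs lay between -3.46 and -1.69 (median -2.34) in the low and between -2.55 and -1.10 (median -2.12) in the high RFI line, and LF-fed pigs between -3.47 and -1.59 (median -2.41) and between -2.56 and -1.21 (median -1.95). Low values were mainly those of low RFI pigs, and the median of the low RFI line was exceeded by 20 of the 24 high RFI pigs. The diet difference was -0.05 (95% interval -0.32 to 0.22), and that between lines 0.41 (standard error 0.13, limma adjusted p = 0.0289). The latter was above 0 on 4 of 6 slides, and was not called with normexp (adjusted p = 0.0618), without the filter on dim probes (0.0551) or in the deposited log2 table (0.0757). These probes deviated from their group means almost independently (r = 0.07 over the 48 pigs). An INSIG1 probe found in this way, A_72_P308228, gave -0.61 for the diet (95% interval -1.22 to -0.01, limma adjusted p = 0.376) and followed A_72_P442208 among pigs (r = 0.86) more than A_72_P186291 (r = 0.40).

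**Figure D3:**
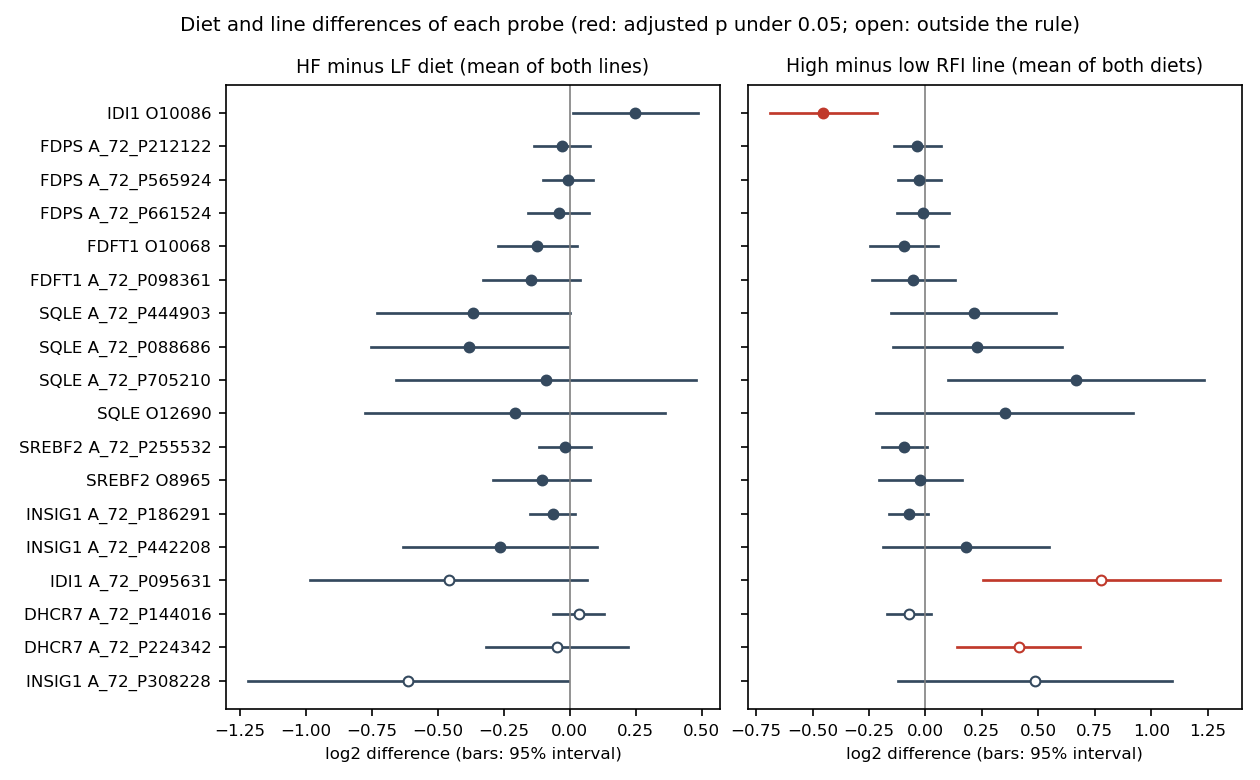
Log2 difference (horizontal axes, with 95% interval) between diets and between lines for each probe; filled points are the 14 probes of the rule, open points the 4 probes known only by their description, and red marks a limma adjusted p under 0.05. No probe is red for the diet, and for the lines IDI1 O10086 lies at -0.45 while A_72_P095631 and DHCR7 A_72_P224342 lie at 0.78 and 0.41.

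The genes differed in how much they varied among pigs of one group. For SQLE A_72_P444903, the SD within groups was 0.65, above that of 92.6% of tested probes, and the highest pig had 7.06 times the signal of the lowest. INSIG1 A_72_P442208 had the same SD of 0.65, whereas INSIG1 A_72_P186291 had 0.14, above that of only 6.51% of probes. SREBF2 A_72_P255532 (0.17) and FDPS A_72_P212122 (0.18) were also below the median of all probes, 0.26, and FDFT1 O10068 (0.26) was near it. Above the median were IDI1 O10086 (0.41), FDFT1 A_72_P098361 (0.32) and SREBF2 O8965 (0.32). Probes of INSIG1 and of SREBF2 thus lay on either side of the median of all probes.

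Whether the genes varied together was examined over the 48 pigs after removing the group means, for the 15 pairs of the 6 measured genes. SQLE and FDPS had the highest correlation (r = 0.50, permutation p = 0.00026, adjusted 0.0039; rho = 0.49, permutation p = 0.00048, adjusted 0.0042). It was 0.50 without the 2 pigs farthest from the median of FDPS, 0.50 with slide means removed, and between 0.03 and 0.79 within slides of 8 pigs. FDPS and INSIG1 followed (r = 0.43, permutation p = 0.00212, adjusted 0.0159; rho = 0.48, permutation p = 0.00056, adjusted 0.0042; r = 0.40 without the 2 farthest pigs), with r = 0.32 after removal of slide means and from -0.71 to 0.87 within slides. INSIG1 and SQLE (r = 0.36, permutation p = 0.0114, adjusted 0.0491; 0.33 without the 2 farthest pigs) did not pass with rho (0.29, permutation p = 0.0457, adjusted 0.172), and had r = 0.29 with slide means removed. FDFT1 and INSIG1 went in opposite directions (r = -0.36, permutation p = 0.0131, adjusted 0.0491; rho = -0.33, permutation p = 0.0225, adjusted 0.113), with r = -0.27 without the 2 farthest pigs and -0.32 with slide means removed. The other 11 pairs had adjusted values above the threshold.

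The variable INSIG1 probe A_72_P442208 followed SQLE more closely than INSIG1 A_72_P186291 did, with r = 0.75 over the 48 pigs against 0.36, values given as a description and without a test of their difference. It had r = 0.34 with FDPS, -0.38 with FDFT1, 0.04 with IDI1 and -0.08 with SREBF2. A pig with much SQLE signal for its group thus often had much signal of this INSIG1 probe as well. For SREBF2 and IDI1, no pair with another of the 6 genes passed. The same pigs often stood at the ends of their groups. In the high RFI line on the LF diet, 1 pig was the highest of its group on 8 of the 14 member probes. These were of 3 genes, SQLE (not all of its probes), FDPS and SREBF2. In the low RFI line on the HF diet, 1 pig was the lowest on 8 probes of 5 genes. Probes of the same gene are not independent observations. The array of the first pig had the smallest share of spots well above background (59.2%) and that of the second pig 72.2%. The part of array brightness in these ends was not tested.

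**Figure D4:**
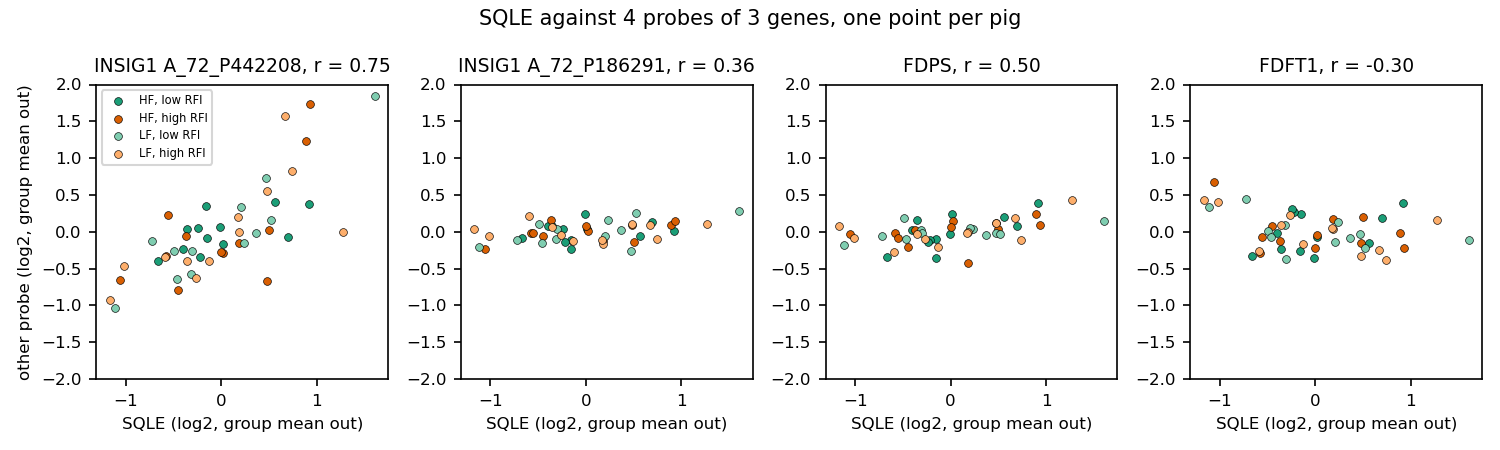
Deviation of SQLE A_72_P444903 from its group mean (horizontal axes, log2) against the deviation of INSIG1 A_72_P442208, INSIG1 A_72_P186291, FDPS and FDFT1 (vertical axes, log2); each point is 1 of the 48 pigs, coloured by line and diet. The points rise together for INSIG1 A_72_P442208 (r = 0.75), lie flatter for FDPS (r = 0.50) and INSIG1 A_72_P186291 (r = 0.36), and do not rise for FDFT1 (r = -0.30).

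The signals of the genes were also set against the summed linear signal of 4 lists over the 48 pigs, in 24 comparisons. Muscle fibre markers were positively related to INSIG1 A_72_P186291 (r = 0.54, permutation p = 8e-05, adjusted 0.00192; rho = 0.52, adjusted 0.00276), FDPS (r = 0.52, adjusted 0.00216, rho = 0.47) and SREBF2 (r = 0.50, adjusted 0.00344, rho = 0.52), each from the permutation test. Macrophage markers were negatively related to FDFT1 (r = -0.44, permutation p = 0.00166, adjusted 0.00996; rho = -0.46, adjusted 0.0069). For SREBF2 and macrophage markers r was -0.43 (permutation adjusted p = 0.0103), but rho was -0.33 (adjusted 0.08), and r was -0.28 without the 2 farthest pigs. FDPS was negatively related to adipocyte markers by rho (-0.37, permutation p = 0.00901, adjusted 0.0433) but not by r (-0.35, permutation adjusted p = 0.055). SQLE, in contrast, had r = 0.28 with muscle fibre, -0.02 with macrophage, 0.06 with adipocyte and 0.35 with fatty acid synthesis genes (permutation adjusted p = 0.055), and none of these passed. Without the 2 farthest pigs, the 3 muscle fibre relations were between 0.41 and 0.52, and that of FDFT1 with macrophage markers was -0.43. With slide means removed they were 0.41 for INSIG1, 0.48 for FDPS, 0.55 for SREBF2 and -0.40 for FDFT1. All these signals share the centring of their array, and the relations with list sums were not repeated with other scalings. The part of the shared scaling in these relations, or of muscle fibre content, was not tested.

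The other genes of the pathway were described from lists. Of the 16 other sterol synthesis genes listed, 10 were measured with 29 probes, and the diet changed 0 of 29 (2 at an unadjusted p under 0.05, median -0.05). Between lines, 14 of 29 probes were above 0 and 15 below, and 6 were called (2 higher and 4 lower in high RFI pigs), a share near the 16.4% over all probes. Both probes of MVK, mevalonate kinase, were higher by 0.38 (limma adjusted p = 0.00837 and 0.012), and 3 of 4 probes of CYP51A1, the lanosterol demethylase, had differences from -0.46 (-0.455) to -0.33, the smallest of which (A_72_P177531) was not called with normexp (adjusted p = 0.0689) or without the filter on dim probes (0.0988). In the regulation list, 0 of 15 probes of 6 genes were called for the diet (5 at an unadjusted p under 0.05) or for the line (2 at an unadjusted p under 0.05).

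In the list for uptake, transport and storage, 24 of 27 probes had less signal on the HF diet, 16 had an unadjusted p under 0.05 and 1 was called, with a median of -0.17. The called probe was that of ABCA1, the cholesterol efflux transporter, with a diet difference of -0.69 (standard error 0.16, limma adjusted p = 0.032, and 0.095 without the filter on dim probes) and a line difference of 0.56 (limma adjusted p = 0.0105). Between lines, 23 of 27 probes were above 0 (median 0.25), and 9 were called, against 16.4% over all probes. The 8 called higher in high RFI pigs were those of ABCA1, LIPA, which frees cholesterol in lysosomes, and MYLIP, a ubiquitin ligase that restrains lipoprotein uptake. The difference was 0.50 to 0.66 with 4 probes of LIPA, 1 of which was not called with normexp (A_72_P539028, adjusted p = 0.0859), and 0.54 to 0.70 with 3 of MYLIP. In addition, 1 of 5 probes of SCARB1, an HDL receptor, had a called difference of -0.26, while the others ranged from 0.01 to 0.25. On the HF diet alone, 1 of the 27 probes was called, a SCARB1 probe higher in high RFI pigs, against 6.39% over all probes.

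Markers of other cell types were set beside these lists. Of 19 probes of the 8 macrophage genes, 17 had a diet difference below 0 (median -0.34), of which 0 were called in limma and 8 had an unadjusted p under 0.05. Between lines, 18 of 19 were above 0 (median 0.44), and 9 were called higher in high RFI pigs, against 16.4% over all probes. The summed macrophage signal, in multiples of the array's mean level, lay between 10.5 and 27.7 (median 17.7) in low RFI and between 14.5 and 66.3 (median 21.6) in high RFI pigs with the HF diet. With the LF diet it lay between 12.9 and 36.3 (median 22.9) and between 15.3 and 41.6 (median 32.02), and each of the 8 genes had a tested probe. Of 34 probes of 8 adipocyte genes, 0 were called for the diet in limma (0 at an unadjusted p under 0.05), while between lines 30 of 34 were above 0 (median 0.21) and 10 were called, all of FABP4 and LIPE, again against 16.4%. The adipocyte sum lay between 77.4 and 152.1 and between 96.0 and 235.1 in HF-fed low and high RFI pigs, and between 72.0 and 209.0 and between 102.4 and 200.3 in LF-fed ones. Of 74 muscle fibre probes, 66 had a line difference below 0 (median -0.09), and 18 were called lower in high RFI pigs, with differences between -0.26 and -0.12, against 9.85% called lower over all probes. The part of these cell types in the differences of IDI1 and of the uptake genes was not tested. Fatty acid synthesis genes had a median of -0.29 for the diet, with 0 of 24 probes called in limma and 0 at an unadjusted p under 0.05. This average covers unlike values in the lines, with a median of -0.67 in the low RFI line (24 of 24 probes below 0, 0 called, 14 at an unadjusted p under 0.05) and of 0.19 in the high RFI line (19 of 24 above 0, 0 called, 0 at an unadjusted p under 0.05). The median interaction was 0.76, with 0 of 24 called in limma and 7 at an unadjusted p under 0.05. The median line difference was 0.81 among HF-fed and -0.17 among LF-fed pigs, and 0.30 over both diets, with 2 of 24 called, 1 of ELOVL6 (0.54, limma adjusted p = 0.044) and 1 of ME1 (0.41, limma adjusted p = 0.00166). The ELOVL6 call did not hold with normexp (0.0526), without moderation (0.0507) or without the filter on dim probes (0.0829).

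**Figure D5:**
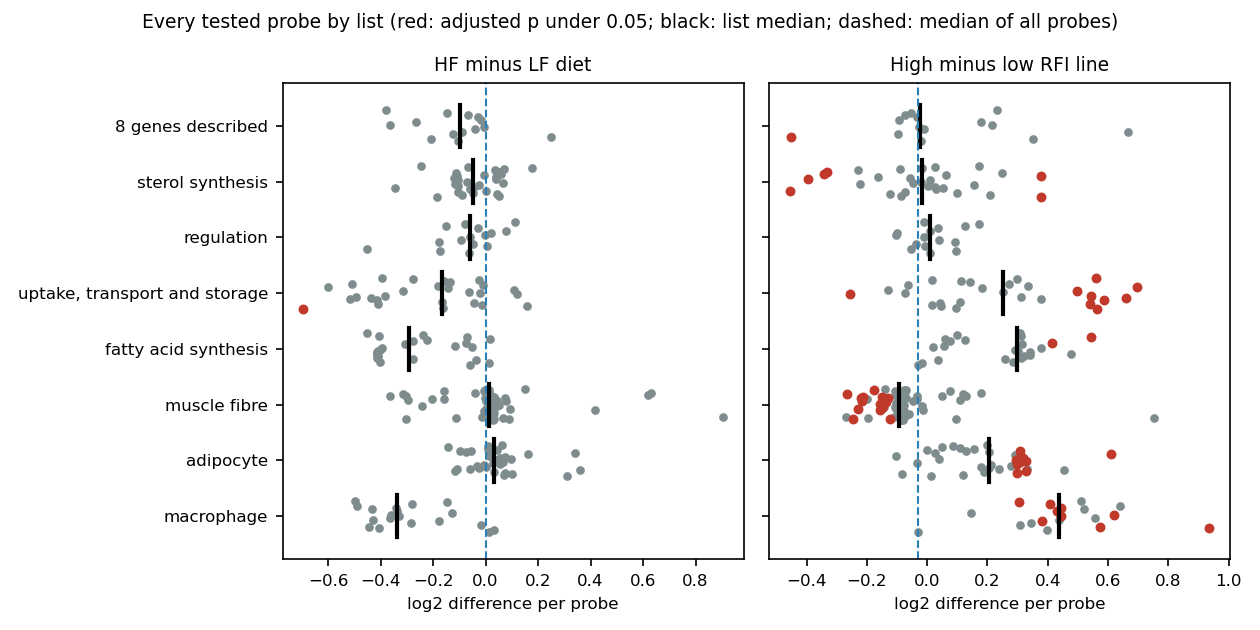
Log2 difference of every tested probe (horizontal axes) between diets and between lines, by list; red points have a limma adjusted p under 0.05, black bars are list medians and the dashed line is the median of all 42125 probes. For the diet, the uptake list (-0.17), fatty acid synthesis (-0.29) and macrophage markers (-0.34) lie left of the dashed line, and for the lines the same lists lie right of it.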

How the data were processed

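The authors hybridised RNA of each pig on a one-colour (Cy3) Agilent array, and the deposited scanner files hold spot intensities from Feature Extraction 10.7.3.1, background-subtracted in the processed signal. R 2.10.0 is named in the submitters' processing notes. The authors also deposited a table of log2 values, found here to be the log2 of each spot's median intensity minus the array's median, over 34472 probes, without the IDI1 probe O10086. Samples were grouped by the line and diet in their labels.

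Outlier and control spots were left out, spots of a probe were averaged, and processed signals were taken to log2 and centred per array on the mean of what was tested (42125 probes well above background on at least 12 arrays, with 169 missing values). Of all probes, 37.3% had a symbol. Group means were fitted with limma 3.58.1 in R 4.3.3, with Benjamini-Hochberg adjustment over all tested probes and a threshold of 0.05. Diet and line effects are means over the other factor. The step was tested on simulated data. Correlations used two-sided tests of 100000 permutations (Python 3.11.15, numpy 2.4.6, scipy 1.17.1). The labels do not say that pigs were from separate litters or pens. The p-values take the pigs as independent, and may be too small if litters or pens were shared.

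The genes, lists and tests were chosen with earlier results of these data known. All tested probes of the 8 genes are named, the representative probe of a gene being its brightest, and of the other lists genes with a probe called for the diet or for the line, some of which are not reported here. The most similar genes were the 10 with the highest correlation with the mean of the members. Marker lists for fibroblasts, endothelium, T cells and red blood cells were also examined. Probes named only by their description, values without each pig or within slides, and correlations with list sums and of the second INSIG1 probe were added after seeing the data. Alternatives covered scaling, background correction, filters, slide, scan day, the deposited table and the variance model.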

Additional observations from a re-analysis of the deposited data

How the results depend on the processing

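No member probe was called for the diet, averaged over lines or within a line, or for the interaction, under any alternative, nor for the averaged diet effect when any single pig was left out (smallest adjusted p among the 14 probes between 0.245 and 0.422, limma). Averaged over diets, IDI1 O10086 was the only member probe called between lines under each alternative except the deposited table, which does not hold this probe and in which 0 of 11 were called. Leaving out single pigs gave between 1 and 2 calls, the second one, SQLE A_72_P705210, only without pig 38, an LF-fed low RFI pig, and an adjusted p of IDI1 between 0.00229 and 0.0109. Across scalings, filters and variance models its difference was between -0.48 and -0.45, but -0.21 after normexp background correction, with an adjusted p between 0.0051 and 0.0127. With slide as a block, 1 member probe, the dim SQLE probe A_72_P705210, was called between lines on the HF diet. This probe would not have been kept without its HF-fed high RFI pigs, so that the call is no independent support. Small differences turned in 2 cases, to 0.004 for the diet and SREBF2 with 75th percentile scaling, and to 0.0524 for the line and INSIG1 as the mean of its probes. The number of probes called over the whole array moved more: for the diet from 177 to 73 with normexp, 0 without the filter on dim probes and 359 with slide as a block, and between 69 and 400 without single pigs. For the diet within the low RFI line it moved from 84 to 174 with 75th percentile scaling, 14 without the filter, 165 with slide as a block, 148 with scan day as a term, 143 in the deposited table and 270 with those 24 arrays alone. For the lines it moved without the filter, from 6919 to 3874, from 2692 to 802 on the HF diet and from 1040 to 424 on the LF diet, and on the HF diet also to 4187 with slide as a block and 1267 with those 24 arrays alone. Leaving out the filter enlarges the adjustment from 42125 to 60305 probes, and the causes of the other changes were not tested. No paired analysis was possible because the pigs of the 4 groups share no replicate number. Signals near the background limit what can be said of HMGCS1, DHCR7 and the dim SQLE probes.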

Other observations

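The genes that varied most like the members among pigs were ranked by correlation. Over the 48 pigs, after removing the group means, the mean of the standardised signals of the 6 measured genes was closest to DTX3 (r = 0.70), ACTA1, the actin of skeletal muscle (0.67), MYL1, a myosin light chain (0.67), CKM, muscle creatine kinase (0.67), ACTA2 (0.66), GAPDH (0.66), RPL12 (0.66), MUC13 (0.66), ARPC1B (0.65) and TNNC2, a fast troponin (0.65), out of 18678 probes with a symbol. This is a description over 48 arrays that share their scaling, with no test. The mean itself followed FDPS most (r = 0.74) and FDFT1 least (r = 0.12). Of the 10 genes, 0 differed between diets, and DTX3, MYL1 and CKM differed between lines, by -0.18, -0.10 and -0.14 (limma adjusted p = 0.0117, 0.0366 and 0.0306).

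Among the marker lists not described so far, 0 of 22 fibroblast, 0 of 16 endothelium, 0 of 4 T cell and 0 of 2 red blood cell probes were called for the diet in limma, with 0 at an unadjusted p under 0.05. Between lines, 2 fibroblast probes (both COL1A1) and 2 endothelium probes (both TEK) were called higher in high RFI pigs, of 22 and 16 probes, which is below the 16.4% called over all probes, and 0 T cell and 0 red blood cell probes were called, with 0 at an unadjusted p under 0.05.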
